A study of Mus musculus with 72 samples.

Results

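Solute carriers of the plasma membrane and of organelles were examined in mouse embryonic stem cells whose RNA was labeled with 4sU and split into a nuclear, a cytosolic and a membrane fraction. The 143 genes were all protein-coding genes with a solute carrier symbol (Slc, a family number, the letter a and a member number) and a mean of at least 2000 T counts over the whole-cell libraries. The mitochondrial Slc25a carriers and 4 genes, Slc38a2, Slc7a11, Slc40a1 and Slc11a2, were left out by the rule. Of 342 protein-coding genes with such a symbol, 291 could qualify, and 148 of these stayed below the T minimum. The 143 genes were part of 10799 protein-coding genes at the same minimum and of 51826 genes in the count files. Nearest inside the minimum were Slc7a4, Slc2a7 and Slc2a4 with 2174.7, 2166.7 and 2092.2 mean T counts, and nearest outside were Slc17a7, Slc22a21 and Slc16a14 with 1834.2, 1833.1 and 1809.9. Checked against what the proteins are, the symbol rule took in 139 carriers of 43 families and 4 proteins that carry nothing: the scaffold proteins NHERF1 (Slc9a3r1) and NHERF2 (Slc9a3r2), kanadaptin (Slc4a1ap) and Slc7a6os. These 4 are described apart. The nucleotide sugar carriers named Slc35b to Slc35f lie outside the rule.

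The cells were E14TG2a, 1 mouse embryonic stem cell line, grown in 2i + LIF medium, which keeps such cells undifferentiated. Every library came from cells given 4sU (4-thiouridine), a uridine analog that pairs as C would after alkylation and is then sequenced as a T to C change, so that T2C conversions mark RNA made during labeling. Labeling lasted 15, 20 or 30 min in replicates 1 and 2. It lasted 20, 40, 60 or 120 min in replicates 3 and 4, and either 60 or 120 min in replicates 5 and 6. Each culture gave 4 libraries of poly(A) RNA, from whole cells, the cytosol (released with digitonin), the membrane fraction (released afterwards with NP-40) and the nucleus. The labels give 500 µM 4sU for 15 to 40 min and 100 µM for all 60 and 120 min libraries. The study's methods give 500 µM also for some cultures labeled for 60 min or longer, without replicate numbers. Replicates 3 and 4 were taken here to be those cultures. The deposited conversion rates were 5.83 to 8.29% in the fractions of replicates 3 and 4 at 60 min and 2.38 to 3.53% in those of replicates 5 and 6 at 60 min. Of the 72 libraries, 64 (16 cultures) entered the comparisons of fractions. The 120 min libraries of replicates 3 and 4 entered the comparison of whole cells and, beyond that, only a repeat of the other comparisons with all libraries.

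Gene counts summed to 13185351 to 52975732 reads in each library. All 10 stem cell markers checked were expressed, with a summed level of 5777 to 13440 TPM per library. The sums were 3.91 to 13.6 TPM for 6 fibroblast markers and 2.82 to 10.8 TPM for 8 markers of differentiated cells. Of the fibroblast markers, Col1a2, Col3a1 and Dcn stayed near 0. Another 2 reached a mean of 1.5 TPM or more in whole cells, Thy1 (5.259) and Pdgfrb (2.398). Of the 8 markers of differentiated cells, 3 did so, namely Gata4, Pax6 and Sox1. TPM, a read count per exon length scaled to the same sum in every library, was computed here from the counts and the annotated exon length. It is a level relative to the other RNA of the same fraction, and a change in the amount of RNA per fraction cannot be told apart from a change of the gene. The whole-cell libraries of replicate 6 went against their labels: the share of new mRNA had a median over the carriers of 0.402 in the library labeled 60 min and 0.170 in the library labeled 120 min, while in replicate 5 it was 0.212 and 0.406. No comparison of fractions used these libraries. They enter the mean whole-cell levels, which were taken over all labeling times, and the fit of the whole-cell tests, which was repeated without them. Whole-cell shares are not used further.

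Solute carriers are membrane proteins with several membrane-spanning helices that move sugars, amino acids, ions, metals, nucleosides and vitamins across membranes. Their first helices are recognized while the protein is still being made, and the ribosome with its mRNA is brought to the endoplasmic reticulum (ER). From there the proteins are sent on to the Golgi, to lysosomes and endosomes or to the plasma membrane, so that carriers of all these places are made at the ER. Slc25a carriers of the inner mitochondrial membrane are made on ribosomes in the cytosol and imported afterwards.

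Codons with T at the second position stand for hydrophobic amino acids, and membrane-spanning helices therefore often appear in the coding sequence as runs of such codons. A stretch was counted where at least 12 of 19 codons in a row had T at the second position. A helix with fewer such codons was not counted, so a gene without a stretch may still encode helices. Of the 139 carriers, 128 (92.1%) had at least 1 such stretch and 55 had at least 4, with a median of 3. The share among 11789 expressed protein-coding genes was 18.6%. None of the 4 symbols that are no carriers had a stretch, 2 of 33 Slc25a genes had 1, and 108 of 141 Tmem genes (76.6%), which encode other transmembrane proteins, had at least 1. The median share of second positions with T was 36.4% in the carriers, 20.4% in the 4 no carriers and 26.4% in expressed protein-coding genes. The sequences below show what this means in the mRNA. They give the stretch nearest to the start codon for 5 of the most abundant carriers, followed by the 19 codons richest in such T for Slc30a9, Slc9a3r1 and Slc4a1ap, whose mRNAs were not enriched in the membrane fraction. Capitals mark T at the second position of a codon, and letters are read 5′ to 3′ along the coding strand (GRCm38).
Slc2a1: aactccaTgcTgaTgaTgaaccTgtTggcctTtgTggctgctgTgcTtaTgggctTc
Slc16a1: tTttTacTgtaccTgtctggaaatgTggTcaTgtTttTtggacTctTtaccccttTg
Slc7a5: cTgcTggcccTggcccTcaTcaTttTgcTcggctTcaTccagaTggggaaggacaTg
Slc29a1: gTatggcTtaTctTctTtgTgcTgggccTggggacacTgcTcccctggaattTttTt
Slc3a2: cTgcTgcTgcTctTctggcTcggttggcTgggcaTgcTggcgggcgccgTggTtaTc
Slc30a9: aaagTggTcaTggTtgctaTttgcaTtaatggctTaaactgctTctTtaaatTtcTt
Slc9a3r1: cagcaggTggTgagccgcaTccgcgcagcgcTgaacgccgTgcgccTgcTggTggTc
Slc4a1ap: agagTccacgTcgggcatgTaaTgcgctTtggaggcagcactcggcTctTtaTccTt

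The Slc2a1 stretch lies in a coding exon at chr4:119132447-119132503 on the plus strand, that of Slc16a1 at chr3:104653146-104653202 (plus), of Slc7a5 at chr8:121896435-121896491 (minus), of Slc29a1 at chr17:45590272-45590328 (minus) and of Slc3a2 at chr19:8713460-8713516 (minus). The Slc30a9 window crosses an exon junction and spans chr5:67333096-67334596 (plus). The Slc9a3r1 window is at chr11:115163742-115163798 (plus) and the Slc4a1ap window at chr5:31527625-31527681 (plus), both in 1 coding exon. The first 5 hold 12 such T each, the Slc30a9 window 11 and the other two 9. Among the 8 carriers that were cytosol-localized by the ratio defined further on, 7 had a stretch, against 104 of 112 membrane-localized carriers, a difference that was not tested. Across 138 carriers, Spearman's rho between the share of second positions with T and the log2 membrane over cytosol count ratio was 0.10 (genes are not independent replicates).

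In whole cells the level of the 143 genes ran from 0.132 to 647 TPM (means of 16 libraries), with a median of 13.7 TPM. Of these, 13 genes reached 100 TPM and 28 stayed under 5 TPM, and the 10 most abundant held 50.4% of the summed level. These were Slc2a3 (647 TPM), Slc7a5 (366), Slc29a1 (352), Slc3a2 (338), Slc2a1 (314), Slc38a4 (288), Slc7a3 (283), Slc16a1 (251), Slc20a1 (219.9) and Slc19a2 (141), all plasma membrane proteins. They import glucose (Slc2a3 or GLUT3, Slc2a1 or GLUT1), large neutral amino acids (Slc7a5 or LAT1, bound to its heavy chain Slc3a2 or CD98), nucleosides (Slc29a1 or ENT1), neutral and cationic amino acids (Slc38a4, Slc7a3), lactate and pyruvate (Slc16a1 or MCT1), phosphate (Slc20a1) and thiamine (Slc19a2). The SD over the 16 libraries was 248 TPM for Slc2a3 and 148 TPM for Slc7a5, larger than the gaps between Slc7a5, Slc29a1, Slc3a2 and Slc2a1, so these neighbours do not differ beyond their spread.

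Nearly all carriers had more reads in the membrane fraction than in the cytosol. Of 142 genes tested, 135 were higher in the membrane fraction and 1 was lower, where 24.6% of all 14506 genes tested were called higher and 7.6% lower (edgeR, adjusted p under 0.05 and absolute log2 fold change over 0.5). The median log2 ratio was 2.98, against −0.09 for all genes tested. Among the carriers alone it was 135 of 138 with a median of 3.00, and Slc22a14, at a level of 0.132 TPM, had too few reads to be tested. For 127 carriers the TPM in the membrane fraction was above that in the cytosol in all 16 cultures, a count given without its share over all genes. For 92 carriers every membrane library was above every cytosol library in TPM, which held for 12.2% of expressed genes. Scaling by library size alone moved the median of all genes to −0.49 and that of the 143 genes to 2.50, with 132 higher and 2 lower. Of 4 nuclear RNAs, Malat1 and Kcnq1ot1 were also called higher in the membrane fraction (log2 ratios 1.61 and 2.52, edgeR adjusted p = 2.3e-11 and 2.2e-16). Neat1 (−0.45) and Meg3 (−0.24) were not called. How much nuclear RNA in the membrane fraction adds to the ratios of the carriers was not tested.

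**Figure D1:**
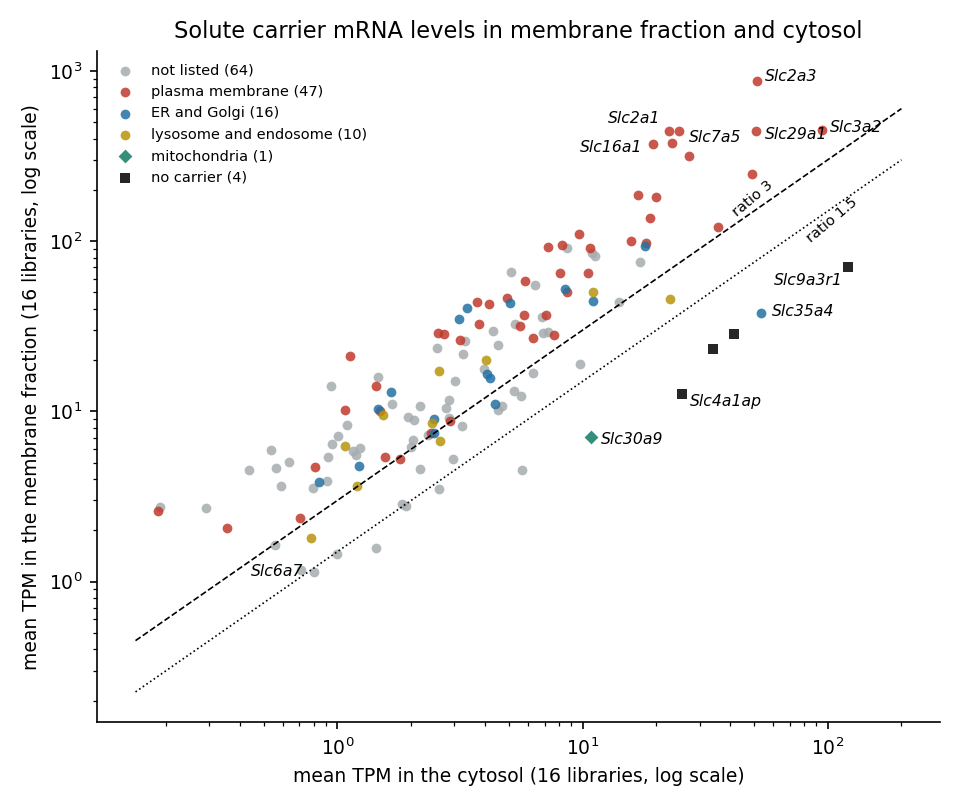
Mean TPM of each of 142 expressed genes in the cytosol (horizontal, log scale) and in the membrane fraction (vertical, log scale), 16 libraries each, colored by the place where the protein is known to work. Dashed and dotted lines mark ratios of 3 and 1.5; most carriers lie above the dashed line, while Slc30a9, Slc35a4 and the 4 symbols that are no carriers (squares) lie below the dotted line.

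Membrane enrichment, the ratio of mean TPM in the membrane fraction to that in the cytosol, put 112 of 142 expressed genes (78.9%, SD 8.72 percentage points between 6 replicates) in the membrane-localized class, at a ratio of 3 or more. Of all expressed genes 13.9% were in this class and 80.7% were cytosol-localized, at a ratio of 1.5 or less. A further 18 of the 142 lay between the limits and 12 were cytosol-localized, namely the 4 no carriers and 8 carriers. Of 33 Slc25a genes none was membrane-localized, and of 137 Tmem genes 80 were (58.4%). Of the 33 Slc25a genes, all were cytosol-localized. The differences between these sets of genes are described by their counts and were not tested.

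The 3 highest count ratios were those of sugar and monocarboxylate carriers. Slc2a1 measured 9.02, 17.9 and 40.4 TPM (lowest, median and highest of 16 libraries) in the cytosol and 288, 381 and 607 TPM in the membrane fraction. The ranges did not overlap, the enrichment was 19.6 ± 5.66 (SD, n = 6 replicates), and the log2 count ratio was 4.88 ± 0.22 (SE, adjusted p = 2.9e-20). Slc16a1 had 7.09, 16.7 and 37.7 TPM in the cytosol and 241, 312 and 554 TPM in the membrane fraction, a log2 ratio of 4.83 ± 0.24 (adjusted p = 4.9e-19). Its relative Slc16a3 (MCT4), which exports lactate, was far lower, with 0.107 to 2.94 TPM in the cytosol and 2.63 to 45.3 TPM in the membrane fraction, so that its ranges overlapped although each of the 16 cultures had more in the membrane fraction (log2 ratio 4.84 ± 0.47, the second highest). Slc2a3, the most abundant of all, had 16.5, 48.2 and 106 TPM in the cytosol against 551, 849 and 1254 TPM, with an enrichment of 16.8 ± 6.28. Of the 24 genes of this group 23 were called higher, with a median log2 ratio of 3.08. The exception was Slc2a7, a sugar carrier at the edge of the T minimum, with 2.25 to 9.14 TPM in the cytosol and 3.28 to 6.74 TPM in the membrane fraction. Its log2 ratio of 0.19 turned to −0.24 when libraries were scaled by size alone, and neither was called.

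All 32 amino acid and peptide carriers were called higher in the membrane fraction, with a median log2 ratio of 3.25. Slc7a5, which exchanges large neutral amino acids, rose from 6.57, 23.5 and 49.2 TPM in the cytosol to 259, 387 and 718 TPM (log2 ratio 4.76 ± 0.29, adjusted p = 1.2e-16). Slc3a2, the single-pass heavy chain that brings Slc7a5 to the cell surface, was the most cytosolic of the abundant carriers, with 55.0, 96.6 and 124 TPM in the cytosol and 369, 444 and 517 TPM in the membrane fraction. Neither gene's ranges overlapped, and their enrichments of 18.01 ± 8.88 and 4.75 ± 0.35 (SD, n = 6) had replicate ranges of 14.5 to 37.4 and 4.31 to 5.34. Slc38a4 reached 16.4 ± 3.48 and Slc7a3, a carrier of arginine and lysine, 11.6 ± 6.41.

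The 24 ion, bicarbonate, phosphate and sulfate carriers were also all higher, with a lower median of 2.73. Slc20a1 and Slc20a2 import phosphate with sodium. Slc20a1 had 15.1, 44.1 and 92.4 TPM in the cytosol and 149, 244 and 350 TPM in the membrane fraction, an enrichment of 5.09 ± 1.99, and Slc20a2 reached 11.4 ± 6.24. Slc12a7, a potassium chloride exporter, had a log2 ratio of 3.27 ± 0.27. The weakest called gene was Slc4a3, an anion exchanger, with 0.211 to 3.30 TPM in the cytosol and 0.735 to 2.59 TPM in the membrane fraction. Its log2 ratio of 0.73 ± 0.30 had an adjusted p of 0.038, only 9 of 16 cultures had more in the membrane fraction, and the call was lost under 4 other settings and without replicate 1, 4, 5 or 6.

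Of 23 metal carriers 22 were higher, with a median of 3.18. Slc39 proteins bring zinc into the cytosol and Slc30 proteins move it out, into organelles or out of the cell. All 10 Slc39 genes were called, with log2 ratios of 2.17 to 4.23, and 8 of 9 Slc30 genes. Slc39a10 had 4.17, 5.77 and 13.5 TPM in the cytosol and 40.4, 97.9 and 133 TPM in the membrane fraction, a log2 ratio of 4.23 ± 0.21. Slc39a1 (4.04 ± 0.22), Slc39a4 (4.11 ± 0.21) and the copper importer Slc31a1 (2.99 ± 0.17) were likewise without overlap between the fractions. The exception was Slc30a9, which is known from mitochondria. It measured 8.64, 10.7 and 12.8 TPM in the cytosol and 4.88, 6.95 and 9.30 TPM in the membrane fraction, was below its cytosolic level in all 16 cultures and had a log2 count ratio of −0.10 ± 0.05 (adjusted p = 0.11). Its TPM ratio was 0.657 ± 0.0872 (SD, n = 6 replicates). The count ratio was scaled between fractions by TMM and the TPM ratio was not.

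Nucleoside and nucleotide sugar carriers were called in 9 of 10 cases, with a median of 2.83. Slc29a1 had 31.04, 57.3 and 69.1 TPM in the cytosol and 259, 473 and 564 TPM in the membrane fraction (log2 ratio 3.65 ± 0.12). The concentrative nucleoside carrier Slc28a1 (3.44 ± 0.29) and the CMP-sialic acid carrier of the Golgi, Slc35a1 (2.92 ± 0.11), were also higher in every membrane library than in any cytosol library. Slc35a4 was not: 29.6, 48.3 and 77.0 TPM stood in the cytosol and 33.2, 37.0 and 44.7 TPM in the membrane fraction. Its log2 ratio of 0.05 was near 0 and changed sign with DESeq2 size factors, with library size alone (−0.38) and without the filter on low counts.

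All 15 vitamin, choline, heme and lipid carriers were higher, with the highest median of the groups, 3.57. Slc19a2, which imports thiamine, measured 5.85, 16.9 and 43 TPM in the cytosol and 135, 192 and 229 TPM in the membrane fraction (3.76 ± 0.22), the choline carrier Slc44a1 had a log2 ratio of 3.66 ± 0.21 and the fatty acid carriers Slc27a4 and Slc27a3 had 4.25 ± 0.17 and 2.64 ± 0.12. All 10 tested organic ion, vesicular and other carriers were higher as well (median 2.74), among them the carnitine importer Slc22a5 (1.72 ± 0.11), Slc10a7 (2.45 ± 0.15), Slc10a3 (3.99 ± 0.20) and the vesicular nucleotide carrier Slc17a9. The last had overlapping ranges, 0.794 to 24.9 TPM and 5.86 to 39.1 TPM, and a log2 ratio of 1.61 ± 0.42 (adjusted p = 0.0016). With counts summed over the times of each replicate its adjusted p was 0.061 and the call was lost, as was that of Slc30a10 (0.067), and 130 of 142 genes were called higher in place of 135.

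By the place where the protein works, 47 of 47 plasma membrane carriers, 15 of 16 ER and Golgi carriers and 10 of 10 lysosomal and endosomal carriers were higher in the membrane fraction, with medians of 3.65, 2.66 and 2.58. Their median enrichments were 8.46, 4.31 and 4.03, and their median levels in whole cells 44.7, 13.7 and 9.68 TPM. ER and Golgi examples were the zinc carrier Slc30a5 (enrichment 6.22 ± 1.61) and the sugar carrier Slc50a1 (4.04 ± 0.82). Lysosomal and endosomal examples were Slc15a4, a carrier of peptides and histidine (4.99 ± 3.22), Slc37a3 (4.55 ± 0.94) and the heme carrier Slc48a1 (2.01 ± 0.71). Of the carriers whose place was not listed, 63 of 64 tested were higher, with a median of 2.78. Whether the 3 places differ was not tested.

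**Figure D2:**
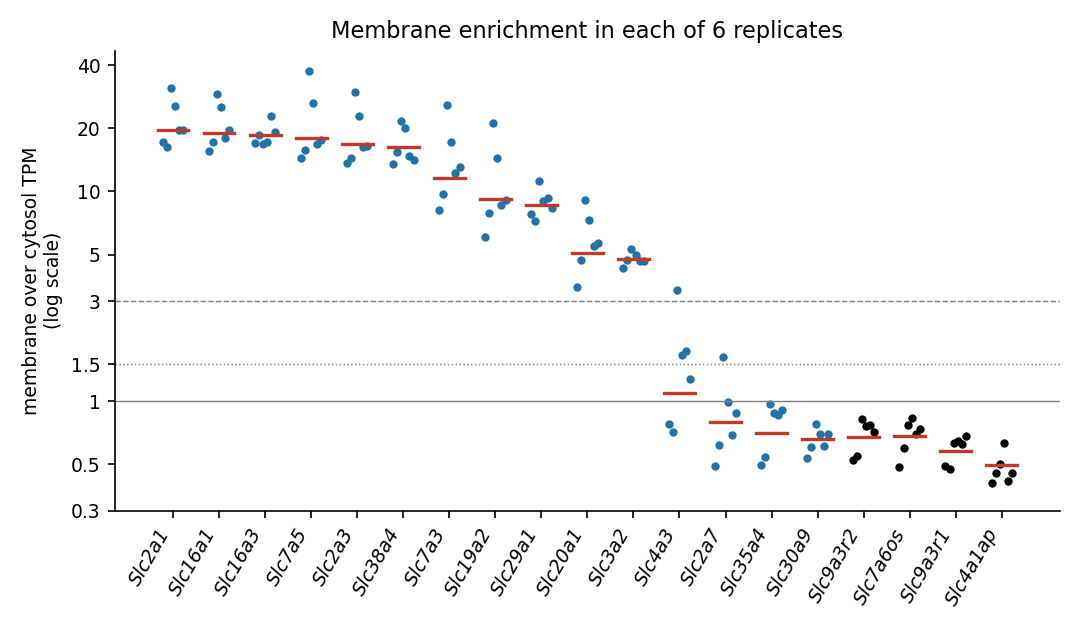
Membrane enrichment (membrane over cytosol TPM, log scale) of 19 named genes in each of 6 replicates (points) with the ratio of the means over 16 libraries (red bars). Lines mark 3, 1.5 and 1; the carriers at the left lie above 3 in every replicate, Slc30a9, Slc35a4 and the 4 symbols that are no carriers (black) lie below 1 in every replicate, and Slc4a3 spans 0.714 to 3.40.

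None of the 4 no carriers was enriched in the membrane fraction. Slc9a3r1, a scaffold under the plasma membrane, had 80.3, 123 and 172 TPM in the cytosol and 50.5, 65.6 and 112 TPM in the membrane fraction, and its log2 ratio of −0.28 ± 0.08 (adjusted p = 0.0030) stayed within the fold limit of 0.5. Slc4a1ap had 19.03 to 35.7 TPM in the cytosol and 7.56 to 22.5 TPM in the membrane fraction, and was the gene called lower, at −0.55 ± 0.13 (adjusted p = 4.9e-04). Without replicate 3 this call was lost. Slc7a6os and Slc9a3r2 had ratios of −0.05 ± 0.06 and −0.04 ± 0.08. In all 16 cultures the TPM of each of the 4 was lower in the membrane fraction than in the cytosol.

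Proteins that work with carriers were measured alongside. Basigin (Bsg), which brings Slc16a1 and Slc16a3 to the surface, had an enrichment of 24.7 ± 6.35 and 1686 TPM in the membrane fraction. Its relatives Nptn and Emb had 9.68 and 9.26. The sodium potassium pump makes the sodium gradient that many carriers use, and its subunits Atp1b1 and Atp1b3 had enrichments of 13.5 and 4.77. The lysosomal carrier Mfsd1 and its partner Glmp had 13.9 and 8.43.

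Against the nucleus the picture was mixed. Of 142 genes tested, 102 were higher and 10 lower in the membrane fraction, with a median log2 ratio of 1.16, where 29.2% of all genes tested were called higher and 31.4% lower with a median of −0.05. Plasma membrane carriers were higher in 41 of 47 cases and lower in none, ion carriers in 12 of 24 cases. The 9 carriers with more reads in the nucleus were Slc6a7, a proline carrier of the brain (−2.38 ± 0.22), Slc22a17 (−2.18), the peptide carrier Slc15a2 (−1.98), the sodium proton exchanger Slc9a5 (−1.61), Slc4a3 (−1.11), Slc2a7 (−0.85), Slc38a9, an arginine sensor of the lysosome (−0.63), the vesicular zinc carrier Slc30a4 (−0.55) and Slc6a16 (−0.52). All had whole-cell levels below the median of the 143 genes, from 2.73 to 12.3 TPM. The other gene called lower was Slc7a6os (−1.04), no carrier. T counts on introns were 82.7% of those on exons in the nucleus at the median of these 9, and 37.0% at the median of the other carriers. Slc4a3 with 28.9% and Slc30a4 with 5.31% lay below the latter value. The part of unspliced RNA in this result was not tested.

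For most carriers the mRNA was less often new in the membrane fraction than in the cytosol. The share is the T2C count over the T count, divided by the conversion rate of the library. Of 110 genes with at least 400 T in every membrane and cytosol library, 82 had a lower share in the membrane fraction and 2 a higher share, where 13.8% of all 11864 genes tested were called lower and 8.16% higher (edgeR, labeling condition as a term, adjusted p under 0.05). The median log2 ratio of the shares was −1.16, against 0.01 for all genes tested. The other 33 genes could not be tested, and their median level in whole cells was 4.98 TPM, against 26.2 TPM for those tested. The membrane share was below the cytosolic share in 12 or more of 16 cultures for 77 of the 110 genes, and in all cultures for 24. For these counts of cultures the shares over all genes are not given here.

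At 15 min the median share over these 110 genes was 0.0197 and 0.0146 in the cytosol of replicates 1 and 2 and 0.0137 and 0.0128 in the membrane fraction. At 30 min it was 0.0537 and 0.0468 in the cytosol, whereas the membrane fraction was still at 0.0165 and 0.0169. The gap between the fractions was wider at 30 min than at 15 min. These membrane shares are small, at conversion rates of 2.42% in both replicates at 15 min and 3.01 and 4.07% at 30 min. No background was subtracted, and whether the membrane values lie near the sequencing error was not tested. In replicates 3 and 4 the cytosol went from 0.0341 and 0.0409 at 20 min to 0.104 and 0.122 at 40 min and 0.173 and 0.179 at 60 min. The membrane fraction went from 0.0250 and 0.0278 to 0.0506 and 0.0423 and to 0.0928 and 0.0910. In replicates 5 and 6 the cytosol rose from 0.383 and 0.333 at 60 min to 0.536 and 0.506 at 120 min, and the membrane fraction from 0.140 and 0.128 to 0.352 and 0.306. In every one of the 8 conditions both cytosol values were above both membrane values. For all genes measured in every library the medians were 0.0927 in the cytosol and 0.0952 in the membrane fraction at 60 min in replicates 3 and 4. In replicates 5 and 6 they were 0.194 and 0.146 at 60 min and 0.370 and 0.302 at 120 min, so that the cytosol was also above the membrane fraction over all genes in that pair.

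**Figure D3:**
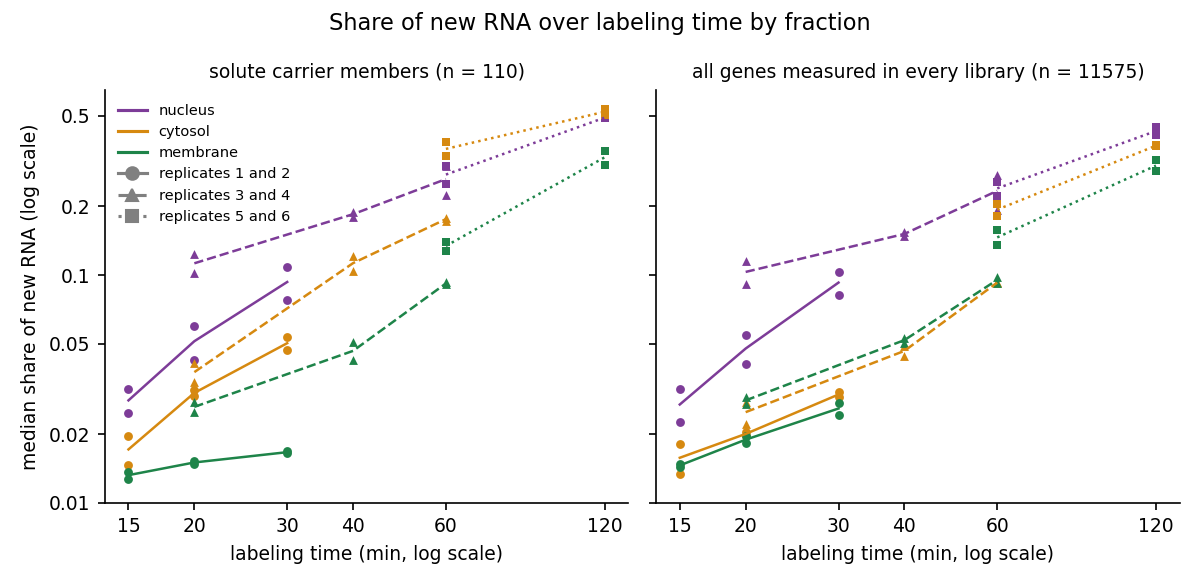
Median share of new to total mRNA (vertical, log scale) over labeling time (horizontal, log scale) in nucleus, cytosol and membrane fraction, for the 110 solute carrier genes (left) and for 11575 genes measured in every library (right). Points are single replicates and lines join the means of a replicate pair; on the left the membrane fraction runs below the cytosol at every time, and on the right the 2 fractions lie close together up to 60 min in replicates 3 and 4.

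The lowest share ratio was that of Slc2a3 and the next that of Slc12a2, and Slc2a1 lay close to them. Slc2a1 had shares of 0.0565 and 0.0485 in the cytosol and 0.0133 and 0.0164 in the membrane fraction after 15 min, and 0.236 and 0.218 against 0.0244 and 0.0259 after 30 min. After 120 min they were 0.689 and 0.670 against 0.451 and 0.418. Its cytosolic share was above its membrane share in each of 16 cultures, with a log2 ratio of −1.86 ± 0.14 (adjusted p = 2.0e-16). Slc2a3 had −2.20 ± 0.13, with 0.1997 and 0.1939 in the cytosol against 0.0146 and 0.0179 after 30 min. Slc12a2, the sodium potassium chloride importer, followed with −2.14 ± 0.17, and Slc16a1 had −1.82 ± 0.14. Of 13 sugar and monocarboxylate carriers tested, 11 were lower, with a median of −1.11.

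Among amino acid carriers 20 of 27 were lower, with a median of −1.26. Slc38a4 had a log2 ratio of −1.97 ± 0.13, Slc7a3 −1.86 ± 0.19 and Slc7a5 −1.36 ± 0.13. Slc7a5 and its heavy chain Slc3a2 took up label differently, although their proteins form a complex. In the membrane fraction Slc7a5 reached 0.140 and 0.135 after 120 min and Slc3a2 0.741 and 0.684. For Slc3a2 the cytosol held 0.427 and 0.407 at that time, less than the membrane fraction, while after 30 min it held 0.155 and 0.153 against 0.0283 and 0.0383. Over all conditions its log2 ratio was −0.37 ± 0.18 (adjusted p = 0.15), and with the 60 and 120 min cultures alone it was 0.53 (adjusted p = 9.3e-05), the opposite direction.

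Metal carriers were lower in 17 of 19 cases (median −1.38), with 9 of 9 Slc39 genes and a median of −1.46 in that family. Slc39a10 had −1.90 ± 0.14 and Slc39a1 −1.64 ± 0.16. The zinc exporter Slc30a1 had −1.17 ± 0.15, with 0.656 and 0.428 in the cytosol and 0.114 and 0.130 in the membrane fraction after 30 min. After 120 min the fractions overlapped, with 0.816 and 0.904 in the cytosol and 0.869 and 0.833 in the membrane fraction, and with the 60 and 120 min cultures alone the log2 ratio was −0.31 (adjusted p = 0.071), so that the call was lost. Among the other groups 13 of 17 ion, 8 of 10 nucleoside and nucleotide sugar, 10 of 15 vitamin and lipid and 3 of 5 organic ion carriers were lower, with medians of −1.05, −1.13, −1.25 and −0.49. By place 40 of 44 plasma membrane, 15 of 16 ER and Golgi and 5 of 7 lysosomal and endosomal carriers were lower, with medians of −1.34, −1.37 and −0.66. Of the carriers whose place was not listed, 22 of 38 tested were lower, with a median of −0.95.

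**Figure D4:**
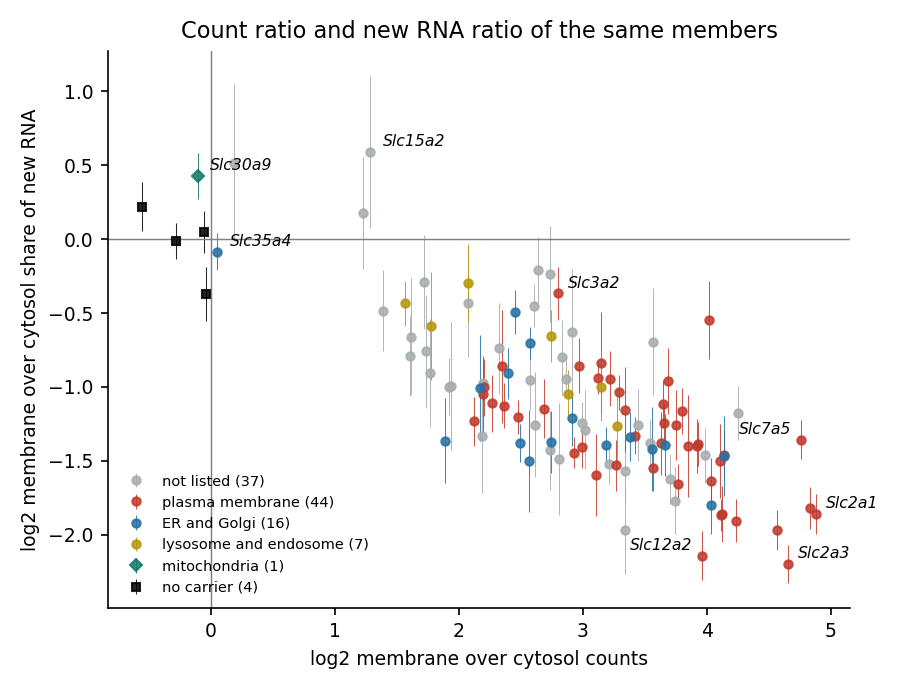
Log2 ratio of counts (horizontal) and log2 ratio of the share of new RNA with its SE (vertical), membrane over cytosol, for 109 genes tested for both. Genes near 0 on the horizontal axis, the 4 no carriers, Slc30a9 and Slc35a4 among them, lie near or above 0 on the vertical axis, and Slc2a1 and Slc2a3 lie at the lower right.

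The higher the count ratio, the lower was the share ratio. Spearman's rho between them was −0.74 over 109 genes and −0.52 over 11354 genes (both measures come from the same libraries, and genes are not independent replicates). None of the 4 no carriers was called, with log2 share ratios of −0.37 to 0.22. Without replicate 4, Slc9a3r2 was called lower (−0.54, adjusted p = 0.039). Slc30a9 was called higher in the membrane fraction, 0.43 ± 0.15 (adjusted p = 0.037). With the culture as a block its adjusted p was 0.056, and the call was also lost without replicate 2, 3 or 4 and with the 60 and 120 min cultures alone. The other call upward, Slc22a14 at 0.52, is uncertain since its annotated gene span overlaps other protein-coding genes on the same strand and its level was 0.132 TPM. Overlap of exons was not examined. An overlap of gene spans with a protein-coding gene on the same strand was found for 5 genes, among them Slc22a14 and Slc10a3. A further 26 genes had no call in either direction, 22 of them carriers, among them Slc3a2, Slc27a3 (−0.21 ± 0.22) and Slc35a4 (−0.09 ± 0.12).

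Mitochondrial carriers and other membrane proteins were measured the same way. Of 33 Slc25a genes 1 had a lower and 5 a higher share in the membrane fraction, with a median log2 ratio of 0.06. Of 125 Tmem genes 72 were lower, with a median of −0.65. Of 1280 membrane-localized genes outside the 143, 1102 were lower, with a median of −1.11, beside −1.19 for the 106 carriers tested.

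The cytosolic libraries also held intron reads of these genes. T counts on introns were 23.8% of those on exons in the cytosol at the median of the 110 genes, against 4.51% in the membrane fraction and 34.5% in the nucleus. In the cytosol it was 18.3% for membrane-localized genes outside the 143 and 8.32% over all genes tested. Among 25 carriers with less than 10% in the cytosol, 18 had a lower share in the membrane fraction, with a median log2 ratio of −1.05. Among 56 carriers with 10 to 40% it was 47 (median −1.30), and among 25 with 40% or more it was 17 (median −0.998). The shares of all genes called at these 3 levels are not given here, so the counts are not set against them. Whether nuclear RNA in the cytosolic libraries adds to the share ratio was not tested.

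Relative to the nucleus the membrane share was lower for 137 of 143 genes and higher for none, where 86.2% of all genes tested were called lower and 0.766% higher. The median was −1.51, against −1.09 for all genes tested. The 6 genes without a call were Slc16a9, Slc24a1, Slc2a7, Slc30a10, Slc30a4 and Slc6a7. After 60 min in replicates 3 and 4 the median share of the 110 genes was 0.302 and 0.225 in the nucleus, above both other fractions. In replicates 5 and 6 it was 0.302 and 0.250 in the nucleus, below the 0.383 and 0.333 of the cytosol.

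**Figure D5:**
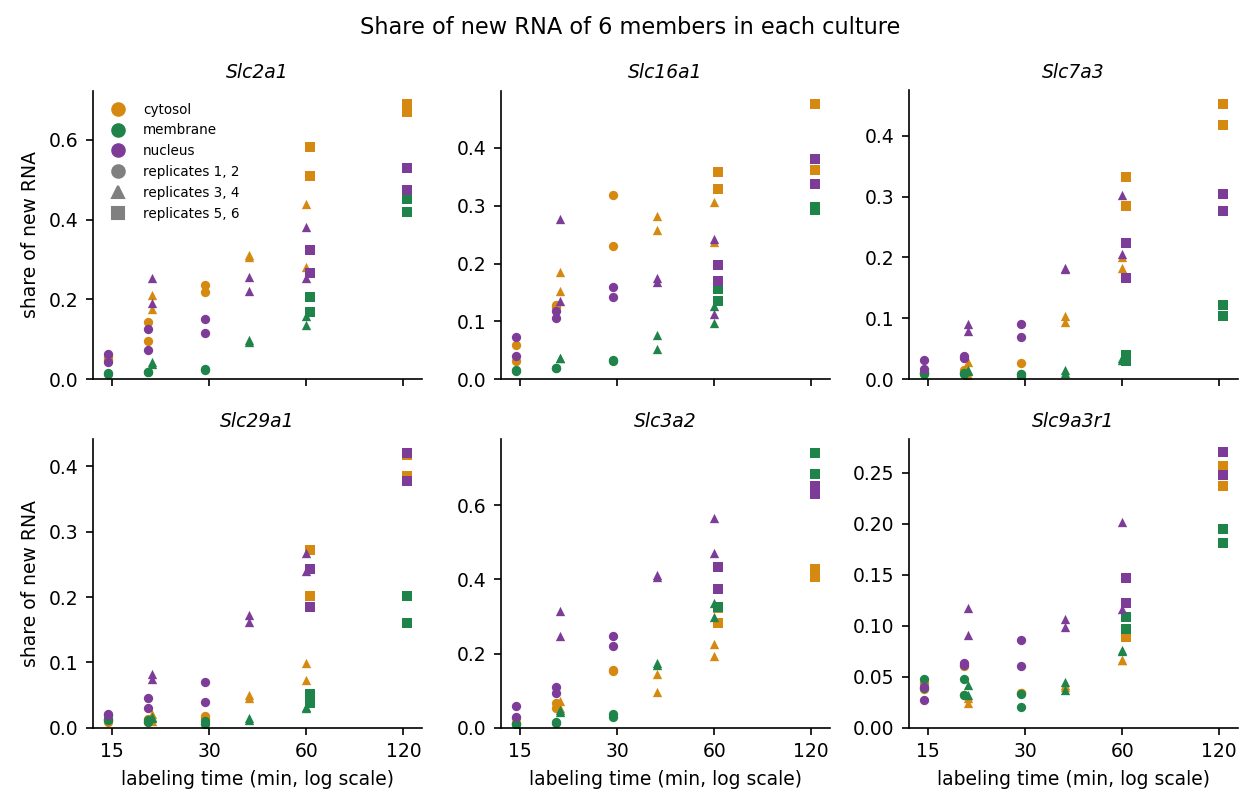
Share of new to total mRNA (vertical) over labeling time (horizontal, log scale) of 6 genes in each culture, with cytosol, membrane fraction and nucleus in color and replicate pairs as symbols. Slc2a1, Slc16a1, Slc7a3 and Slc29a1 had higher shares in the cytosol than in the membrane fraction from 40 min on, Slc3a2 had lower ones at 120 min, and Slc9a3r1, no carrier, had 0.0667 and 0.0665 in the cytosol and 0.0766 and 0.0749 in the membrane fraction at 60 min in replicates 3 and 4.

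Over labeling time the ratio of the membrane share to the cytosolic share changed in 12 of 110 genes, rising in 9 and falling in 3, where 1.66% of all genes tested rose and 1.8% fell. Of membrane-localized genes outside the 143, 13.2% rose and 4.61% fell, beside 8.18% and 2.73% of the 110 genes. Rising fastest per doubling of time were Slc3a2 (0.85 ± 0.13 on the log2 scale), Slc30a1 (0.76 ± 0.12), Slc16a1 (0.62 ± 0.11) and Slc2a1 (0.61 ± 0.11). Slc7a3 (−0.75 ± 0.16), Slc29a1 (−0.61 ± 0.14) and Slc38a10 (−0.60 ± 0.17) fell. For Slc29a1 the shares were 0.0157 and 0.0181 in the cytosol and 0.0103 and 0.0058 in the membrane fraction after 30 min, and 0.0726 and 0.0990 against 0.0296 and 0.0315 after 60 min in replicates 3 and 4. Time was spread over replicate pairs and doses, and the pairs gave different answers. Within replicates 1 and 2 (15 to 30 min) 11 of 138 genes fell and none rose, with a median of −1.05. The membrane shares of this pair were small, and no background was subtracted from them. Within replicates 3 and 4 (20 to 60 min) none was called, and within replicates 5 and 6 (60 to 120 min) 43 of 138 rose and none fell, with a median of 0.77. The medians of all genes were −0.05 and 0.07 in the first and the last pair. The share of all genes called within a pair is not given here, so the counts called are not set against it. Slc2a1 had −1.29, 0.61 and 0.90 in the 3 pairs and Slc7a3 −1.21, −1.28 and 1.18, with different signs.

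After 120 min (replicates 5 and 6) the membrane share had a median of 0.334 over 143 genes, from 0 to 0.986, with 0.309 over all genes measured. The cytosolic median was 0.543 over 141 genes, with 0.385 over all genes. The highest membrane shares were those of Slc45a3 (1.15 and 0.826 in the replicates), the manganese exporter Slc30a10 (0.951 and 0.901), Slc15a4 (0.950 and 0.843), Slc30a1 (0.869 and 0.833) and the sulfate carrier Slc26a2 (0.826 and 0.715). Slc45a3 and Slc30a10 had at most 212 and 136 reads in a membrane library, which limits their shares. The lowest were Slc6a7, with 0 T2C in both replicates and at most 76 reads in a membrane library, the bicarbonate carrier Slc4a8 (0.0726 and 0.0664), Slc5a4b (0.0598 and 0.108), Slc6a16 (0.0758 and 0.0931) and Slc4a3 (0.131 and 0.0629). The mean cytosolic share of each of these 5 was 0.194 or more, which held for all 141 genes measured in the cytosol.

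In whole cells no gene of the 143 passed the test for a change of level with labeling time. At 60 against 20 min in replicates 3 and 4 none of 142 genes was called (0% of all 16858 genes tested), and 2 had an unadjusted p under 0.05, 1.41% against 4.43% of all genes. DESeq2 called none lower. At 120 against 20 min none was called either, where 0.0712% of all genes rose and 0.0415% fell by edgeR. Here 20 genes (14.1%, against 9.82% of all genes) had an unadjusted p under 0.05, of which 19 were lower at 120 min, the median was −0.19 against −0.01, and the lowest adjusted p was 0.052. DESeq2 called 3 genes lower, the zinc carrier of the Golgi Slc30a6, Slc35a5 and Slc37a1. The share of all genes that DESeq2 called is not given here, so this count is not set against it. Each time had 2 libraries, and the fit took its spread from all whole-cell libraries. Without replicate 6, none of 142 genes was called at either time.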

How the data were processed

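RNA of 72 libraries was sequenced after 4sU labeling, alkylation and strand-specific poly(A) library preparation. Per the labels and the study's methods, the authors aligned reads to mm10 with STAR 2.7.6 and deposited read counts per gene (HTSeq 0.11.1). Files of T and T2C counts per gene were deposited with a conversion rate per library (a fraction) and the share of new RNA (a ratio). The submitters' notes also name RSEM 1.3.3. The HTSeq strand setting is not given in the sources used here. No unlabeled library was used and no background was subtracted, so shares can exceed 1. The largest gap between a deposited share and its recomputed value was 1.2e-13.

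Here 51633 of 51826 genes (99.99% of counts) matched the annotation. Between 15382522 and 52975732 reads per library were counted in the 64 libraries compared. Counts were tested with edgeR 4.0.16 in R 4.3.3 (quasi-likelihood, TMM, filterByExpr, adjusted p under 0.05, absolute log2 fold change over 0.5). Shares were tested with edgeR on T2C counts with the log of T times conversion rate as offset, at least 400 T in every library and the 8 labeling conditions as a term. The slope added fraction by log2 labeling time. Whole-cell tests fitted all 18 whole-cell libraries and compared times within replicates 3 and 4. P-values were Benjamini-Hochberg adjusted over all genes tested. All replicates are of 1 cell line. The study's methods describe the replicates as passaged independently and labeled separately. They do not say whether cultures of 1 replicate number at different times shared a passage. The p-values therefore measure the spread between these samples. Cultures of 1 replicate at different times were counted as separate samples. The whole-cell tests without replicate 6 were added after seeing the data. Alternatives were DESeq2 1.42.0, limma 3.58.1, other scalings and filters, a T minimum of 2000, the 60 and 120 min cultures alone, all 18 libraries per fraction, counts summed per replicate, a culture block and leaving out each replicate. The membrane and cytosol libraries of a culture deviated together from the means of their fractions (correlation 0.48 to 0.81, above 0.1 in 16 of 16 cultures). Each culture was split into all fractions, but differences between replicate pairs, doses and times also enter these deviations. Their parts in the correlation were not tested.

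On simulated data the count test (14420 genes) recovered 98% of log2 changes of 1, and the share test (11864 genes) 19% of changes of 0.5 and 86% of changes of 1. The simulated libraries were independent, with the same spread for all genes and no effect of replicate or culture. The measured libraries differ in this, so these rates do not give the power of the tests on them. Members and lists were chosen with earlier results of these data known. Slc7a6os was added to the no carriers, and the codon description took the place of a planned protein description, after the files were seen. Genes were named by rule: highest level, highest and lowest count ratios, highest and lowest membrane shares at 120 min, largest slopes, the no carriers, threshold neighbours and the most abundant of each list. Slc12a2, Slc15a2, Slc22a14, Slc22a17, Slc9a5, Slc38a9, Slc30a4, the genes without a call against the nucleus, the overlapping genes and those called by DESeq2 were named after their values were seen. Values of a few genes are not reported here.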

Additional observations from a re-analysis of the deposited data

Results flagged for a closer look

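Replicate 3 stood apart in the membrane over cytosol TPM ratio of 3 genes of low level. The ratio of Slc30a10 was 4.63 in replicate 3 and at most 2.24 in the other replicates, that of Slc45a3 was 11.33 against at most 5.60, and that of Slc7a4 was 70.58 against at most 17.34. These are 3 of 51 named genes tested for such a gap, and chance flags about 1 in 20 groups.

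The membrane to cytosol share ratio changed with labeling time in 12 genes, so that the difference between the fractions was not the same at all times. Per doubling of time the log2 ratio fell for Slc7a3 (−0.75), Slc29a1 (−0.61) and Slc38a10 (−0.60), and rose for Slc2a3 (0.47), Slc7a1 (0.48), Slc39a10 (0.49), Slc16a6 (0.52), Slc19a2 (0.59), Slc2a1 (0.61), Slc16a1 (0.62), Slc30a1 (0.76) and Slc3a2 (0.85), by edgeR with the interaction of fraction and time. Time, replicate pair and dose cannot be told apart over the whole range.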

How the results depend on the processing

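Most results kept their direction and side of the threshold: 153 counts stayed within 1.5 times and 21 did not, and of the values of genes named by rule 1127 stayed, 58 lost and 4 gained the call and 25 changed sign. Scaling by library size gave 2 genes lower in the membrane fraction, a T minimum of 2000 gave 48 lower shares of 59 tested, and the culture block, and leaving out overlapping genes, gave 1 higher share. The block, a pairing of fractions by culture, also ended the share call of Slc48a1 (adjusted p = 0.050) and the slope call of Slc7a1 (0.068). Within replicates 1 and 2 the slope was called in 0 higher and 11 lower, within replicates 3 and 4 in 0 and 0, and within replicates 5 and 6 in 43 and 0. In whole cells at 120 min DESeq2 gave 3 genes lower, no filter 3 and the replicate block 1. For these slope and whole-cell counts the shares of all genes called are not given here. Leaving out 1 replicate gave 0 to 1 genes with lower counts, 1 to 2 higher and 77 to 97 lower shares, and 5 to 13 higher and 0 to 5 lower slopes. The lowest numbers of slopes came without replicate 5 (5 higher) and without replicate 1 (0 lower) or 2 (1 lower), and 5 were lower without replicate 3.

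Signs changed for the counts of Slc2a7 (−0.24, library size) and Slc35a4 (−0.00352 with DESeq2 size factors, −0.00394 with DESeq2, −0.38 with library size, −0.14 without filter). For the shares they changed for Slc22a5 (−0.65 to 0.00207 when 1 replicate was left out), Slc27a3 (0.060 with limma), Slc2a7 (−0.16 at 60 and 120 min, −0.20 to 1.24 when 1 replicate was left out), Slc35a4 (−0.23 to 0.041), Slc3a2 (0.53 at 60 and 120 min), Slc7a6os (−0.22 at 60 and 120 min, −0.043 to 0.13 when 1 was left out) and Slc9a3r1 (−0.077 to 0.10). For the slopes they changed within replicates 1 and 2 for Slc7a1 (−2.11), Slc16a1 (−1.39), Slc19a2 (−1.04), Slc2a1 (−1.29), Slc2a3 (−1.68), Slc30a1 (−0.11), Slc39a10 (−1.28) and Slc3a2 (−1.11), and within replicates 5 and 6 for Slc29a1 (1.25), Slc7a3 (1.18) and Slc38a10 (0.53). The causes were not tested. Depth left 33 genes without a test of the share.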
